A study of Mus musculus with 43 samples.

Results

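Lancl3 and its paralogue Lancl2 are 2 of the 10127 genes in the table of expression values. Lancl3 was chosen by its measured rise in the arcuate nucleus of fasted mice. Lancl2 was added as the other LanC-like gene with a row in that table. RNA was sequenced from laser-captured arcuate nucleus (ARC), dorsomedial hypothalamus (DMH), paraventricular nucleus (PVN) and ventromedial hypothalamus (VMH) of 12 male C57/BL6 mice aged 16 to 19 weeks. All 12 mice carried a congenital deletion of the Snord116 cluster on the paternal chromosome, present in every cell. The comparison is between mice fed ad libitum and mice fasted for 24 hours, with 4 fasted and 5 fed libraries from ARC, 5 and 6 from DMH, 5 and 5 from PVN, and 6 and 5 from VMH. Wild-type mice were not analysed here, and each difference is one within the deletion genotype. Each mouse gave up to 4 libraries, 1 per nucleus, and capture and library preparation ran in 3 batches. A library is named by its nucleus and the number of its mouse (ARC-86).

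LanC-like proteins are the animal relatives of the bacterial cyclases that close lanthionine rings in peptide antibiotics. They bind glutathione and a zinc ion, which is held by a pair of cysteines and a histidine, and they can add glutathione to dehydrated amino acids in damaged proteins. LANCL2 is myristoylated, binds the plant hormone abscisic acid, and acts with the mTORC2 complex on the kinase Akt. LANCL3 is the least studied of the family, and its gene is X-linked, so that male mice carry a single copy.

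Lancl3 (ENSMUSG00000047344) lies on the plus strand of chromosome X, from 9199902 to 9268085 in GRCm38, with 5 exons and 3991 exonic bases in the GENCODE M21 annotation. Lancl2 (ENSMUSG00000062190) lies on the plus strand of chromosome 6, from 57702540 to 57739439, with 3020 bases in the union of its exons. The coding sequences hold 420 and 450 codons. Translated and aligned, 154 of 395 aligned residues were identical, or 39.0%. In the coding sequence of each gene, cysteine, histidine and glycine codons follow each other at 2 places, and these stretches are shown because the zinc site of the family is there. They were read 5′ to 3′ from the GENCODE M21 transcripts Lancl3-201 and Lancl2-202, with the Cys-His-Gly codons in capitals.
Lancl3, cysteine at codon 294: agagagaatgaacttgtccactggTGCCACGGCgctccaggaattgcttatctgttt
Lancl2, cysteine at codon 321: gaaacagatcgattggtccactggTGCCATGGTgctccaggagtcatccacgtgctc
Lancl3, cysteine at codon 340: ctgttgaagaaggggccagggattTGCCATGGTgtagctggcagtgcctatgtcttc
Lancl2, cysteine at codon 367: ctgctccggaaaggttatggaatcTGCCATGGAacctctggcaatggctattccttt
The Lancl3 triplets are exonic, in exon 3 at chrX:9251404-9251412 and in exon 4 at chrX:9258068-9258076. The Lancl2 triplets are in exon 6 at chr6:57726552-57726560 and in exon 7 at chr6:57732286-57732294.

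The longest run of bases common to both transcripts is 14 bases, gtccactggtgcca, which covers the start of the first triplet. Reads were 50 bases long, and no 50-base window of a Lancl2 transcript occurs in a transcript of another gene. Of the 3942 windows of Lancl3, 151 occur in another gene, in each case antisense in Gm14862. Exon 3 of Lancl3, 198 bases from 9251222 to 9251419, lies wholly opposite an exon of Gm14862, and the kit does not mark strand, so reads there cannot be assigned to one of these genes. Gm14862 has no row in the table used here. Vopp1 overlaps the Lancl2 gene body on the opposite strand, with 0 shared exonic bases.

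Expression was given as CPM, read counts per mega reads of the library. The values of the 10127 genes summed to 554896 to 689010 CPM per library, so the table does not hold all genes that were read. Agrp and Pomc, which the paper reports in ARC, have no row. Genes called measured here are those with a row, and a gene without a row may still have been expressed. Depth ran from 1.94 mega reads in VMH-311 to 8.23 mega reads in DMH-308, and the median library had 4.10. The 82 values of both genes corresponded to whole numbers of reads to within 0.043 of a read. The lowest Lancl3 value, 7.06 CPM in fed PVN-111, rested on 26 reads and had a 95% exact Poisson interval of 4.62 to 10.4 CPM. The Lancl3 value resting on most reads was that of fasted ARC-100, 456 reads or 81.6 CPM, with an interval of 74.3 to 89.5 CPM. These intervals cover counting error only, since amplified RNA can give several reads per molecule.

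The nuclei were checked by their markers. Npy was at 195 to 1226 CPM in ARC and at most 33.4 CPM elsewhere, Avp at 395 to 1475 CPM in PVN and at most 10.04 CPM elsewhere, Npvf at 56.5 to 225 CPM in DMH and at most 6.30 CPM elsewhere, and Fezf1 at 172 to 256 CPM in VMH and at most 21.9 CPM elsewhere. Other listed genes separated the nuclei less. Pmch, at 149 to 631 CPM in DMH, reached 75.9 CPM in VMH. Sox14, at 4.25 to 19.5 CPM in VMH, reached 13.3 CPM in DMH. Of the listed genes the table held 1 of 6 (ARC), 3 of 4 (DMH), 2 of 5 (PVN) and 2 of 3 (VMH). The DMH list includes Hcrt and Pmch, which are not taken here as specific to DMH neurons.

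Lancl3 was high in fasted ARC. It was at 81.6, 83.3, 91.4 and 91.5 CPM in fasted ARC-100, ARC-311, ARC-305 and ARC-86. In fed ARC it was at 25.7, 42.7, 44.9, 48.1 and 52.9 CPM in ARC-111, ARC-313, ARC-125, ARC-127 and ARC-308. Every fasted ARC library was above every fed one, and above each of the 32 libraries of the other nuclei. This holds for the libraries used: a pair of columns carries the name ARC with mouse 85 (fasted) and mouse 92 (fed), but the labels give PVN and no ARC for these mice, and the columns were left out. The means were 87.0 ± 5.24 CPM (SD, n = 4) and 42.9 ± 10.3 CPM (SD, n = 5), a ratio of 2.03. On the log2(CPM + 0.5) scale the difference with batch in the fit was 1.07 ± 0.20 (SE), with a 95% interval of 0.65 to 1.49. Within batches 1, 2 and 3 the differences were 1.81, 0.81 and 0.87. In ARC, 17 of the 9654 genes tested (0.176%) passed an adjusted p of 0.1. The ARC contrast is how Lancl3 was chosen, so its values are a description and carry no test. The share of all genes whose ARC groups separate fully is not given here, so nothing is read from the separation.

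**Figure D1:**
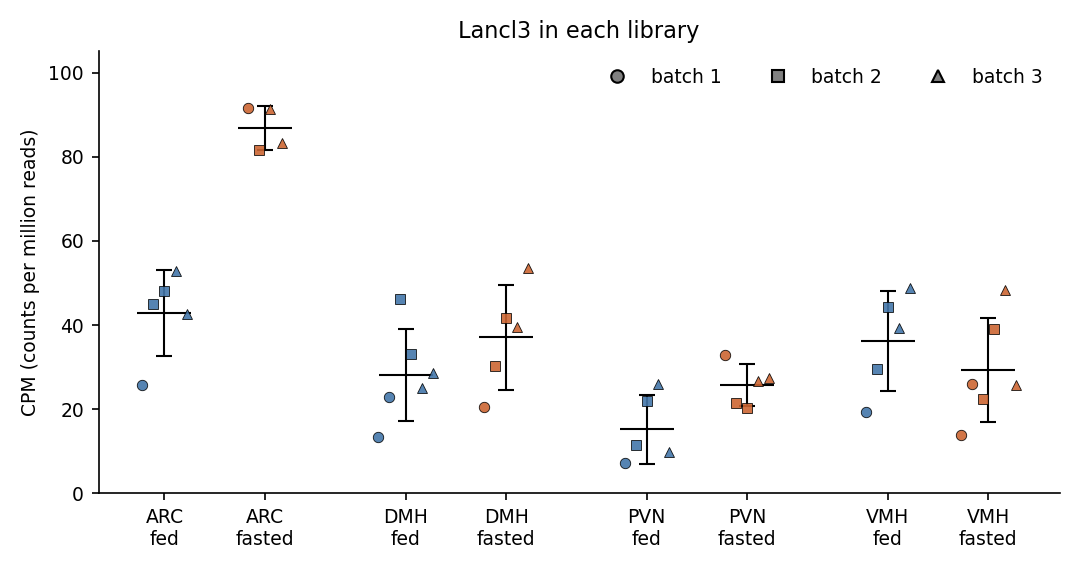
Lancl3 in CPM (vertical axis) in each of the 41 libraries, by nucleus and nutritional state; points are libraries, their shape marks the batch, and bars are the mean and SD. The fasted ARC libraries lie between 81.6 and 91.5 CPM, and no other library exceeds 53.5 CPM.

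Cell-type markers were summed in the same ARC libraries. The 4 measured of 6 endothelial markers summed to 54.3 to 73.6 CPM in fasted and 71.3 to 89.8 CPM in fed ARC, and the 6 measured of 8 microglial markers to 72.8 to 100.04 and 86.4 to 154 CPM. The 3 measured of 8 astrocyte markers summed to 102 to 122 and 110 to 154 CPM, and the 3 measured of 9 markers of tanycytes and ependyma, the cells lining the third ventricle beside ARC, to 24.3 to 71.2 and 29.2 to 63.3 CPM. The 2 measured of 6 neuronal markers summed to 462 to 507 and 436 to 550 CPM, and the 6 measured of 7 oligodendrocyte markers to 281 to 709 and 246 to 776 CPM. The medians in fasted and fed ARC were 63.0 and 77.8 CPM for endothelium, 86.1 and 109 CPM for microglia, 103 and 118 CPM for astrocytes, and 31.3 and 44.0 CPM for tanycytes and ependyma. They were higher in fasted ARC for neurons, at 476 and 456 CPM, and for oligodendrocytes, at 484 and 336 CPM. The fasted and fed ranges overlapped for each of the 6 lists, and no measured marker was at 0 in all libraries of an ARC group. Their part in the Lancl3 values was not tested. In these bulk captures, a change in the number of cells of a type and a change in RNA per cell cannot be told apart.

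Outside ARC the rule did not use the fasting comparison, and it was tested there with limma across all genes. The mice of the ARC libraries are among the mice tested there, so these tests do not rest on an independent set of animals. In PVN Lancl3 was at 20.2, 21.5, 26.7, 27.4 and 32.9 CPM in fasted PVN-101, PVN-100, PVN-305, PVN-311 and PVN-86. It was at 7.06, 9.75, 11.4, 21.9 and 25.9 CPM in fed PVN-111, PVN-313, PVN-125, PVN-127 and PVN-308. The groups overlapped, with 3 of 5 fasted libraries above all fed ones and 3 of 5 fed libraries below all fasted ones. The means were 25.8 ± 5.09 CPM (SD, n = 5) and 15.2 ± 8.20 CPM (SD, n = 5). The log2 difference was 0.88 ± 0.33 (SE), with a 95% interval of 0.18 to 1.58, and within batches 1, 2 and 3 it was 2.14, 0.38 and 0.75. The unadjusted limma p was 0.0165, and the adjusted p was 0.381, above the threshold of 0.1 that 35 of 9529 genes passed in PVN (0.367%). The difference was 0.57 without fasted PVN-86 and also without fed PVN-111, the only PVN libraries of batch 1.

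In DMH Lancl3 was at 20.4, 30.3, 39.4, 41.6 and 53.5 CPM in fasted DMH-86, DMH-100, DMH-305, DMH-101 and DMH-311. The 6 fed DMH libraries ran from 13.3 CPM in DMH-92 to 46.1 CPM in DMH-125, with a median of 26.7 CPM. The groups overlapped over most of their range. The difference was 0.29 ± 0.25 (SE) on the log2 scale, with a 95% interval of -0.22 to 0.81 and a limma adjusted p of 0.873. In DMH, 1 of 9751 genes passed the threshold (0.0103%). Within batches the differences were 0.22, -0.14 and 0.78.

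VMH was the nucleus where the estimate had the other sign. The 6 fasted VMH libraries ran from 13.9 CPM in VMH-85 to 48.4 CPM in VMH-305, with a median of 25.9 CPM. The fed VMH libraries were at 19.2, 29.5, 39.4, 44.2 and 48.9 CPM in VMH-111, VMH-125, VMH-308, VMH-127 and VMH-313. The groups overlapped over most of their range, with a difference of -0.22 ± 0.26 (SE), a 95% interval of -0.75 to 0.31 and a limma adjusted p of 0.933. In VMH, 2 of 9594 genes passed the threshold (0.0208%). The differences within batches were -0.01, -0.28 and -0.31.

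**Figure D2:**
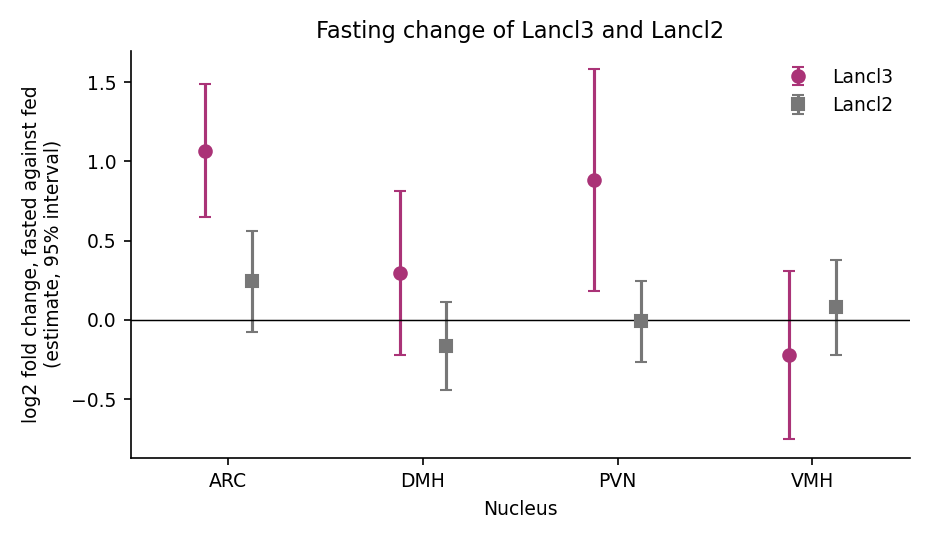
Difference between fasted and fed libraries on the log2(CPM + 0.5) scale (vertical axis) for Lancl3 and Lancl2 in each nucleus; points are estimates with batch in the fit and bars are 95% intervals. Lancl3 is at 1.07 for ARC, 0.88 for PVN, 0.29 for DMH and -0.22 for VMH, and Lancl2 lies between -0.16 and 0.24.

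The fasting difference of Lancl3 in ARC exceeded its mean in the other nuclei by 0.75 ± 0.32 (SE) on the log2 scale, with a 95% interval of 0.10 to 1.40. Since ARC was chosen for its difference, this value is a description as well. The other nuclei were then combined to 1 value per mouse, the mean over its DMH, PVN and VMH libraries after nucleus and batch means were taken out. The 6 fasted mice exceeded the 6 fed mice by 0.27 on the log2 scale, with 4 of 6 fasted mice above 0 and 5 of 6 fed mice below 0. A 2-sided exact permutation test over the 216 relabellings within batches gave p = 0.213 (0.426 adjusted over both genes), where the smallest possible p is 0.00926 and the threshold was 0.05. Fasted mice 86 and 85, of the same batch, were the highest and the lowest fasted values, at 0.59 and -0.54. Of mouse 85 only the VMH library was used, and of fed mouse 92, the lowest fed value at -0.59, only the DMH library. The difference was 0.12 without mouse 86 and 0.40 without mouse 85.

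**Figure D3:**
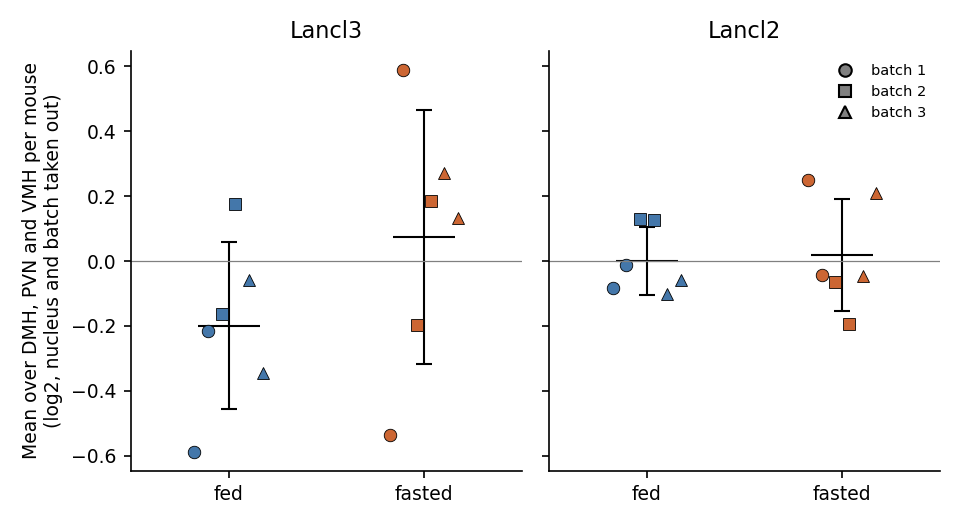
Mean log2 value of each mouse over DMH, PVN and VMH after nucleus and batch means were taken out (vertical axis), for Lancl3 and Lancl2 in fed and fasted mice; shapes mark batches, and bars are the mean and SD over 6 mice. For Lancl3 the fasted mice spread from -0.54 to 0.59 and overlap the fed mice, and for Lancl2 both groups lie between -0.20 and 0.25.

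Levels of Lancl3 also differed between nuclei. Over both states the mean was highest in ARC at 62.5 ± 24.6 CPM (SD, n = 9), followed by VMH at 32.4 ± 12.1 CPM (n = 11), DMH at 32.2 ± 12.02 CPM (n = 11) and PVN at 20.5 ± 8.50 CPM (n = 10). In a fit over all 41 libraries with the fasted and fed means of a nucleus weighted equally, DMH exceeded PVN by 0.74 ± 0.19 (SE) on the log2 scale, with a limma adjusted p of 0.00362. PVN was below VMH by a difference of -0.75 ± 0.19 (SE), with an adjusted p of 0.00163. DMH and VMH were neighbours in this order that did not differ beyond their spread, with a difference of -0.0049, a 95% interval of -0.37 to 0.36 and an adjusted p of 0.990. Of the 10121 genes in this fit, 18.0% passed the threshold between DMH and PVN, 31.3% between PVN and VMH and 23.4% between DMH and VMH, so that a level difference of this kind was common. Lancl3 was higher in DMH than in PVN in 8 of the 10 mice with both, and lower in PVN than in VMH in 8 of 10. Cell-type marker sums differed between these nuclei as well. The neuronal sum was 463 to 544 CPM in PVN, 572 to 822 CPM in DMH and 672 to 868 CPM in VMH. It holds only Syt1 and Tubb3, which did not order these nuclei alike. Mean Syt1 was lowest in PVN, at 326.7 CPM, beside 617.1 CPM in DMH and 622.1 CPM in VMH. Mean Tubb3 was highest in PVN, at 178.2 CPM, beside 126.5 CPM in DMH and 151.2 CPM in VMH. The Tubb3 ranges of these nuclei overlapped. The endothelial sum was 180 to 299 CPM in PVN, 94.1 to 169 CPM in DMH and 69.6 to 130 CPM in VMH. Astrocyte, microglial and tanycyte and ependyma sums overlapped, and oligodendrocyte sums were higher in VMH than in PVN. Their part in the Lancl3 levels was not tested.

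The level differences that involve ARC contain the contrast that chose the gene and are given without a test. ARC exceeded DMH by 0.94 ± 0.19, PVN by 1.68 ± 0.20 and VMH by 0.93 ± 0.19 (SE) on the log2 scale. In fed libraries only, ARC exceeded DMH by 0.53 ± 0.26, PVN by 1.59 ± 0.27 and VMH by 0.27 ± 0.27 (SE). Fed ARC and fed VMH thus overlapped, and the fed levels of Lancl3 were lowest in PVN. In those fed libraries DMH exceeded PVN by 1.06 ± 0.26 (adjusted p = 0.00828, limma), and PVN was below VMH by a difference of -1.31 ± 0.27 (adjusted p = 0.000623). In fasted libraries only, an alternative chosen after seeing the data, neither difference passed the threshold: DMH against PVN was at 0.47 ± 0.25 (adjusted p = 0.338, limma) and PVN against VMH at -0.14 ± 0.24 (adjusted p = 0.760). PVN was below VMH in 5 of 5 fed and 3 of 5 fasted mice, and DMH above PVN in 4 of 5 of each. Whether these differences themselves changed with state was not tested. Within mice, Lancl3 was higher in ARC than in PVN in 9 of 9, and higher in ARC than in DMH, and than in VMH, in 8 of 9.

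**Figure D4:**
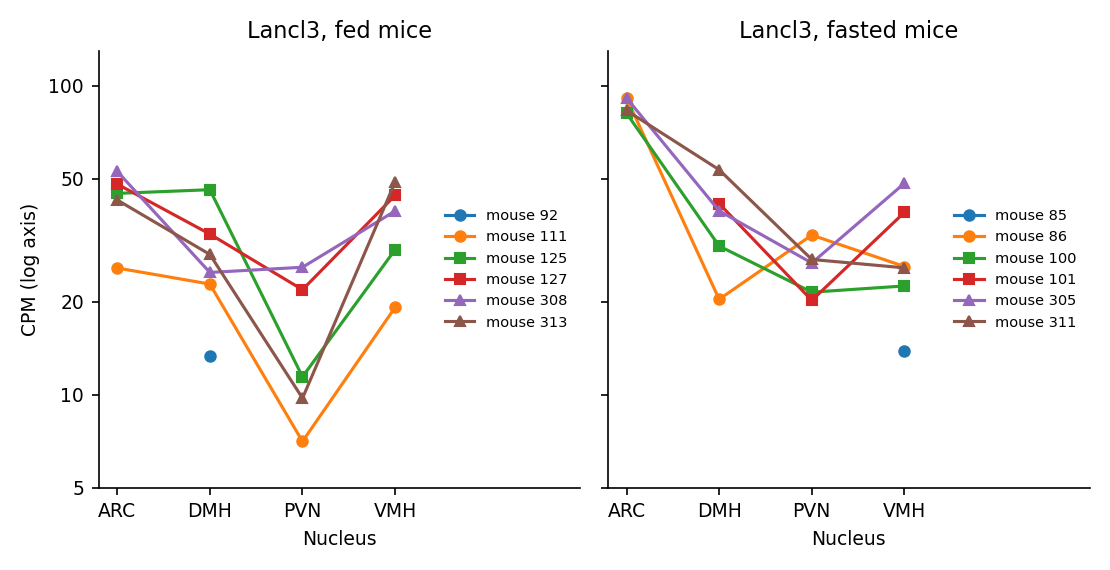
Lancl3 in CPM on a log axis (vertical) across the nuclei, with 1 line per mouse in fed (left) and fasted (right) mice; shapes mark batches as in the plot by library. In 4 of 5 fed mice with all nuclei PVN is the lowest, and in the 4 fasted mice with an ARC library ARC is the highest.

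Lancl2 was the more abundant gene. Per kilobase of exon, it was at 55.0 ± 12.4 CPM and Lancl3 at 9.03 ± 5.23 CPM (SD, n = 41 libraries), and Lancl2 was the higher of the pair in 41 of 41 libraries. The ratio per kilobase of Lancl2 to Lancl3 ranged from 2.31 in fasted ARC-100 to 29.3 in fed PVN-111. In ARC Lancl2 was at 142, 177, 193 and 202 CPM in fasted ARC-100, ARC-86, ARC-305 and ARC-311. In fed ARC it was at 116, 119, 161, 164 and 191 CPM in ARC-111, ARC-125, ARC-313, ARC-308 and ARC-127. The groups overlapped, and the difference was 0.24 ± 0.15 (SE) on the log2 scale, with a 95% interval of -0.07 to 0.56, a description like that of Lancl3.

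Lancl2 passed the threshold in none of the nuclei where fasting was tested. In PVN it was at 129 to 215 CPM fasted and 144 to 189 CPM fed, a difference of -0.0099 ± 0.12 (SE) with a 95% interval of -0.27 to 0.25. In DMH the difference was -0.16 ± 0.13, with an interval of -0.44 to 0.12, and in VMH it was 0.08 ± 0.15, with an interval of -0.22 to 0.38. The limma adjusted p values for PVN, DMH and VMH were 0.990, 0.871 and 0.969, and the unadjusted ones 0.936, 0.238 and 0.596. Per mouse over these nuclei, the difference was 0.02 (exact permutation p = 0.824).

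**Figure D5:**
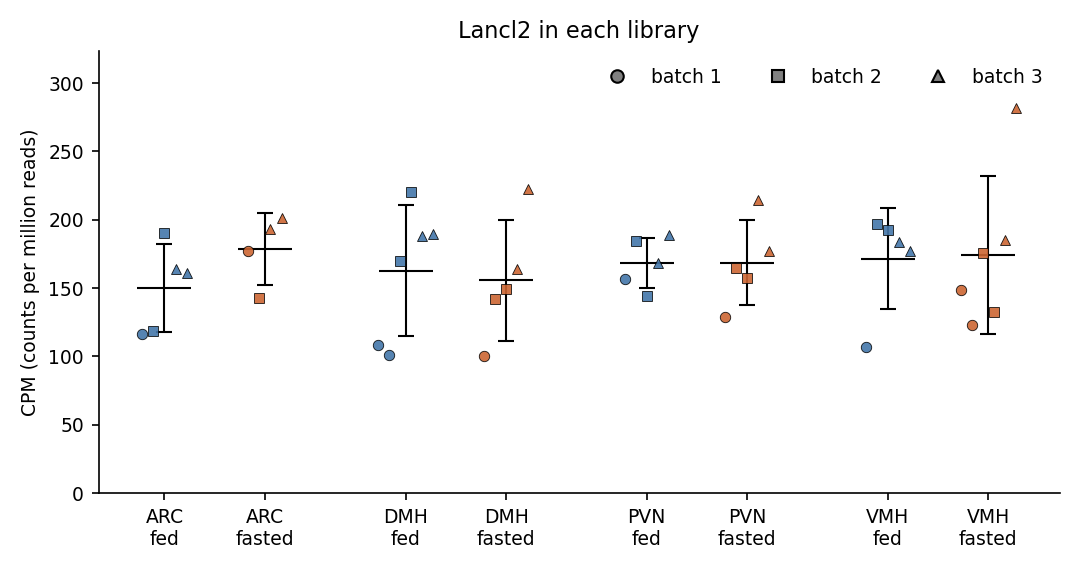
Lancl2 in CPM (vertical axis) in each of the 41 libraries, by nucleus and nutritional state; points are libraries, their shape marks the batch, and bars are the mean and SD. Values run from 100.03 to 281 CPM, and fasted and fed libraries overlap in every nucleus.

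The mean level of Lancl2 was 173 ± 47.0 CPM for VMH, 169 ± 24.2 CPM for PVN, 163 ± 31.5 CPM for ARC and 160 ± 44.2 CPM for DMH (SD, n = 11, 10, 9 and 11). No pair of neighbours in this order differed beyond its spread. Of the 6 pairs, 0 passed the threshold in limma and 0 had an unadjusted p under 0.05, while 18.0% of genes passed between ARC and DMH, 16.7% between ARC and PVN and 30.3% between ARC and VMH. The pair farthest apart was DMH and VMH, with a difference of -0.13 on the log2 scale, a 95% interval of -0.33 to 0.08 and an adjusted p of 0.444. The intervals of the 6 pairs lay between -0.33 and 0.26.

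Averaged over fasted and fed libraries, both genes were lower in batch 1. Batch 1 libraries averaged below the other batches in 4 of 4 nuclei. The differences were -0.95 to -0.32 on the log2 scale for Lancl3 and -0.79 to -0.20 for Lancl2. This did not hold in every group: for Lancl3 the batch 1 library was the highest in fasted ARC (ARC-86, 91.5 CPM). The same was so in fasted PVN (PVN-86, 32.9 CPM). Batch 3 libraries averaged above the other batches in 4 of 4 nuclei for both genes, by 0.27 to 0.59 and by 0.26 to 0.48. Each batch held fasted and fed libraries of every nucleus, and batch was a term in each fit. With nucleus and batch means taken out, Lancl3 and Lancl2 had a Pearson r of 0.07 over the 41 libraries, which share mice and depth.

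Genes of pathways tied to the family were also counted. Over all genes tested, 8.10%, 6.62%, 9.97% and 6.98% had an unadjusted p under 0.05 in ARC, DMH, PVN and VMH, so that a list of this size holds few or no such genes at the background share. Of 45 genes for glutathione synthesis and use, the table held 15. In limma, 0 of the 14 or 15 tested passed the threshold in any nucleus, and 0, 1, 1 and 2 (in the order ARC, DMH, PVN, VMH) had an unadjusted p under 0.05. Their median log2 difference was 0.06 in ARC, beside 0.02 over all genes tested, 0.18 in DMH beside 0.01, 0.15 in PVN beside 0.01, and -0.06 in VMH beside -5.2e-05. The members with the smallest p in ARC were Eef1g, a subunit of translation elongation factor 1 with a glutathione transferase-like domain, at -0.19 ± 0.09 (SE), Clic4, a chloride channel protein of the same fold, at -0.33 ± 0.19, and Gstk1, the glutathione transferase of mitochondria and peroxisomes, at 0.85 ± 0.52. Their adjusted p values in ARC were 0.613, 0.682 and 0.6904.

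Of 18 genes of Akt and mTORC2 signalling, the table held 10. In limma, 0 of these 10 passed in any nucleus, and 0, 0, 1 and 2 in that order had an unadjusted p under 0.05, again beside 8.10%, 6.62%, 9.97% and 6.98% of all genes. Their median difference was -0.05 for ARC, -0.07 for DMH, 0.12 for PVN and -0.0026 for VMH. Inppl1, the lipid phosphatase SHIP2, was at 0.69 ± 0.47 (SE) in ARC, Phlpp1, a phosphatase that removes the activating phosphate of Akt, at 0.24 ± 0.17, and Prr5l, a partner of mTORC2, at -0.54 ± 0.64. Their adjusted p values were 0.706, 0.715 and 0.851.

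Genes near the members were also followed. The table held 6 genes that start within 1 Mb of Lancl3, of which the nearest, B630019K06Rik, lies 304938 bases away. In limma, 0 of the 5 or 6 tested passed in any nucleus, and 1 in each nucleus had an unadjusted p under 0.05. B630019K06Rik was that gene in ARC, at 77.9 ± 9.88 CPM fasted (SD, n = 4) and 56.8 ± 12.5 CPM fed (n = 5), a log2 difference of 0.51 ± 0.18 (SE) with an adjusted p of 0.459 in limma. It was also that gene in DMH, with a difference of 0.44 ± 0.20 (adjusted p = 0.741), and was at 0.32 ± 0.18 in VMH and 0.02 ± 0.19 in PVN. In PVN that gene was Dynlt3, at -0.36 ± 0.12 (adjusted p = 0.286, limma). In VMH it was Slc38a5, at -2.08 ± 0.75 (adjusted p = 0.610, limma), with means of 0.41 CPM fasted and 4.22 CPM fed. These genes were named after their values were seen. The table held 11 genes that start within 1 Mb of Lancl2, of which 0 passed in any nucleus and 0, 1, 0 and 0 in that order had an unadjusted p under 0.05. The shares over all genes are the same as for the pathway lists, so nothing is read from these counts.

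Within 200 kb of Lancl2 were Ppm1k, the phosphatase that activates branched-chain keto acid dehydrogenase, Herc6, a ubiquitin ligase, Pyurf, the pseudogene Gm26712, and Vopp1. In ARC their log2 differences were -0.34 ± 0.21, -0.62 ± 0.45, -0.32 ± 0.30, 0.21 ± 0.53 and 0.06 ± 0.20 (SE). Their adjusted p values in ARC lay between 0.691 and 0.956. Vopp1, which overlaps Lancl2, was at 53.0 ± 6.06 CPM in fasted and 51.2 ± 8.37 CPM in fed ARC (SD, n = 4 and 5).

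Among 7639 genes with a mean of at least 5 CPM, those whose pattern was most like Lancl3 over the 41 libraries, after nucleus and batch means were taken out, were Nod2, Sez6l, Eif3l, Srxn1 and Bmyc, with a Pearson r of 0.65, 0.65, 0.63, 0.62 and 0.62. Over the 32 libraries outside ARC their r with Lancl3 was 0.57, 0.63, 0.53, 0.57 and 0.58. Over the 8 group means the genes most like Lancl3 were Cenpt, Atg14 and Sugp2, with r of 0.97, 0.95 and 0.95. For Lancl2 they were Tmtc1, Ubr3, Hmga1, Syne1 and Cdk5r2 over libraries, with r of 0.57 to 0.64, and Map3k9, Clip1 and Sat2 over group means, with r of 0.93. These are the highest of many correlations across libraries that share mice and depth, and are given as a description.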

How the data were processed

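Amplification of RNA from laser-captured nuclei used NuGEN's Ovation kit, which does not mark strand, and libraries were sequenced as single-end 50-base reads. Per the submitters' processing notes the tools were CASAVA 1.7, TopHat2 2.0.11, Cufflinks 2.2.1, edgeR and limma, with genome GRCm38. The authors left out outlier libraries, which can lower the spread between replicates, and deposited CPM per Ensembl gene. Nucleus, state and mouse in their names tied 41 columns to samples. The names of 2 more columns, ARC with mouse 85 (fasted) and mouse 92 (fed), fitted no label, and these were left unused. No values were matched to 2 of the 43 samples, labelled PVN of the same mice. Symbols and coordinates came from GENCODE M21 for 9891 of 10127 genes.

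The members and gene lists were chosen with earlier results of these data known. Tests were made on log2(CPM + 0.5) with limma 3.58.1 in R 4.3.3 (lmFit, eBayes with a trend), so fold changes of low genes are understated. Fasting was fitted per nucleus with batch as a covariate, on genes at 1 CPM or more in at least the number of libraries of the smaller group. Levels came from 1 fit to the 41 libraries with a mean for each of 8 groups and a batch term. P values were 2-sided and adjusted by Benjamini-Hochberg over all genes, with a threshold of 0.1 as in the study. Low values were whole multiples of 1 read in 97.7% to 99.1% of cases per library (tolerance 0.1 read), which gave the depth, but 101 genes also held positive values under 0.01 CPM, so no count test was run. The fits were also run on simulated data, and the outcome is not given here. Nuclei of 1 mouse share an animal, and the consensus correlation within mice was -0.00325. Python 3.11.15 with scipy 1.17.1 gave the permutations, with a threshold of 0.05.

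The genes named were the members, list members past the threshold (where there were none, the 3 with the smallest p in ARC of the glutathione list and of the Akt list), neighbours within 200 kb, and the 5 and 3 genes most like each member over libraries and over group means. B630019K06Rik, Dynlt3 and Slc38a5 were added after their values were seen. The alternatives were other pseudocounts (0.1 and 2), filters and scalings, array weights, no batch, a replicate block, fed libraries only, fasted libraries only (added after seeing the data), 1 fit over all nuclei, and leaving out each library or mouse.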

Additional observations from a re-analysis of the deposited data

Results flagged for a closer look

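Of the 16 groups formed by gene, nucleus and state, 1 held a library far from the others, where chance gives about 0.8. Lancl2 was at 107 CPM in fed VMH-111, while the other 4 fed VMH libraries lay between 177 and 197 CPM. That library was the only batch 1 library of its group, and batch 1 libraries were lower for Lancl2 in 4 of 4 nuclei. VMH-111 is itself part of the batch 1 average in VMH, and the cause of its value was not tested.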

How the results depend on the processing

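Each fasting and level result of Lancl3 and Lancl2 that was tested kept its side of its threshold (adjusted p of 0.1, or 0.05 for the permutation) under every alternative run and without any library or mouse, except in fasted libraries only, a setting added after seeing the data. There the level of Lancl3 in DMH against PVN was 0.47 and in PVN against VMH -0.14 on the log2 scale, no longer past the threshold, with fewer libraries. Lancl3 in ARC exceeded VMH by 0.27 in fed and 1.60 in fasted libraries only, against 0.93 over both states. The fasting change of Lancl3 ranged from 0.84 to 1.18 (ARC), 0.16 to 0.42 (DMH), 0.57 to 1.11 (PVN) and -0.34 to -0.08 (VMH) when 1 library was left out, and was 0.55 in PVN with array weights (adjusted p over alternatives 0.210 to 0.766). That of Lancl2 ranged from 0.14 to 0.39 (ARC) and -0.25 to -0.07 (DMH) when 1 library was left out, and crossed 0 in PVN (-0.07 to 0.06) and VMH (-0.04 to 0.20). It was 0.12 in ARC with array weights and -0.05 in DMH without batch. Per mouse over DMH, PVN and VMH, the difference of Lancl3 was 0.12 to 0.40 without 1 mouse (exact permutation p = 0.0648 to 0.435). With mouse as a replicate block, no call changed (DMH above PVN by 0.74 for Lancl3, adjusted p = 0.0037, limma). Counts over all genes moved more. In ARC 17 genes passed, 0 without batch (604 with an unadjusted p under 0.05), 4 at a pseudocount of 0.1, 5 without a filter or in the fit over all nuclei, 24 with array weights, and 3 to 23 without 1 library. In PVN 35 passed, 3 without batch and 79 with array weights, and 2 to 31 without 1 library, the lowest without fasted PVN-100. In DMH 1 passed, and 0 to 2 under the alternatives, and in VMH 2 passed, and 1 to 5. Between nuclei 1690 to 3167 genes passed per pair, 918 to 1880 in fed and 793 to 2203 in fasted libraries only. The causes were not tested. List counts stayed at 0 without a filter or without batch. Scaling moved the median of all genes in no nucleus beyond 0.04. At these numbers of libraries the 95% intervals of the fasting change of Lancl3 outside ARC were wider than 1 log2 unit.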
